A study of Schizosaccharomyces pombe with 12 samples.

Results

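The hexose transporter (ght) family of fission yeast, Schizosaccharomyces pombe, was followed in RNA of whole cells. Its members were taken by identifier and not by any measured value: ght1 (SPCC548.07c), ght2 (SPBC4B4.08), ght3 (SPAC1F8.01), ght4 (SPBC1683.08), ght5 (SPCC1235.14), ght6 (SPCC1235.13), ght7 (SPBC1348.14c) and ght8 (SPCC548.06c), 8 of the 7268 features of the count table. All 8 passed the filter on low counts, as did 6904 features in all. The study asked how loss of Set1, the methyltransferase that marks lysine 4 of histone H3, and truncation of the histone demethylase homologue Lsd1 alter expression at a normal and at a stressful temperature. There were 6 conditions with 2 libraries each: lsd1-ΔHMG cells (labelled lsd1dHMG) at 37°C and 30°C, set1Δ cells (labelled set1d) at 37°C and 30°C, and wild-type cells (labelled WT) at 37°C and 30°C. Per the study's methods the 37°C cells had been moved there for 2 hours, the lsd1-ΔHMG protein lacks its C-terminal HMG box and was built on an epitope-tagged gene, and the replicates were described as derived independently.

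The ght genes encode membrane proteins of the major facilitator superfamily that carry hexoses into the cell. In this yeast Ght5 is known as the high-affinity glucose transporter on which growth at low glucose depends, Ght3 is known for gluconate, and Ght6 prefers fructose over glucose. Glucose controls the family at several steps: the zinc-finger repressor Scr1 holds down glucose-repressed genes until AMP-activated kinase is active, cyclic AMP reports plentiful glucose, and TORC2 keeps transporters on the cell surface against arrestin and ubiquitin ligase.

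Library totals ran between 27642384 and 34843653 expected counts. The lowest counts of any member were 12 and 14, for ght7 in set1Δ cells at 37°C, followed by 63 for ght7 in a wild-type library at 37°C and 68 for ght6 in a wild-type library at 30°C. The set1 gene had 14.3 to 16.2 CPM (counts scaled to a common library size) in the 4 set1Δ libraries, against 64.4 to 112 CPM in the other 8, while lsd1 counts cannot check a truncation. The small heat-shock chaperone gene hsp16 had 4533 and 5798 CPM in the wild-type libraries labelled 37°C, against 39422 and 36205 CPM in the wild-type libraries labelled 30°C, the reverse of a rise with heat. The temperature labels of the wild-type libraries are therefore in doubt. Whether labels were exchanged or the wild-type cultures differed in some way other than temperature was not tested. The labels were used as given. An exchange would turn the direction of every difference between temperatures in wild-type cells. It would also change the wild-type libraries that each mutant is set against. Comparisons between the mutants, and between temperatures within a mutant, use no wild-type level. In both mutants hsp16 was higher at 37°C, with 3968 and 5093 CPM against 2261 and 2179 CPM in lsd1-ΔHMG cells and 15391 and 19026 CPM against 830 and 727 CPM in set1Δ cells. Over 5104 protein-coding genes (a description, since genes are no replicates) the log2 fold change of mutant over wild-type followed gene GC content, with r of 0.57 and 0.49 for lsd1-ΔHMG at 37°C and 30°C, and 0.49 and 0.11 for set1Δ at 37°C and 30°C. The ght genes lie high on that scale: ght6 was at the 95th percentile of gene GC content, ght5 at the 94th, ght1 at the 89th, ght8 at the 84th and ght7 at the 81st, with ght2, ght3 and ght4 between the 57th and 65th. Values with offsets that remove the trend with GC content and gene length are therefore given wherever they change the call of a member.

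The 8 proteins are related closely enough to blur some of the counts. In the RefSeq annotation of ASM294v3, used for names and comparisons between genes because the files follow ASM294v2, the proteins had 518 to 557 residues. Ght5 and Ght8 were 91.6% identical over their residues, and their coding sequences shared an unbroken run of 248 bases. Ght3 and Ght4 were 86.9% identical with a shared run of 240 bases, and ght1 shared runs of 182 bases with both ght5 and ght8. Reads were 150 bases long, so a read inside such a run has no single origin. The authors assigned reads by fraction, and 79 of the 96 values of the family were not whole numbers, as were 73.7% to 83.6% of all values in a library, so this share is not particular to the family. Changes of ght5 and ght8, of ght3 and ght4, and of ght1 are uncertain to that extent. The longest run shared by any other pair was 72 bases. Of the members, ght1, ght5, ght6 and ght8 lie on chromosome III, ght2, ght4 and ght7 on chromosome II, and ght3 on chromosome I.

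Summed over the family, and per kilobase of gene so that members can be added, transporter RNA was lower at 37°C than at 30°C in every strain as labelled (the wild-type labels being in doubt) and highest in lsd1-ΔHMG cells at 30°C. The summed level was 403 ± 2.76 RPKM (CPM per kilobase of gene; SD, n = 2 here and below) in lsd1-ΔHMG cells at 37°C and 1017 ± 42.6 RPKM at 30°C, 271 ± 25.8 RPKM in set1Δ cells at 37°C and 696 ± 8.22 RPKM at 30°C, and 156 ± 4.41 RPKM in wild-type cells at 37°C and 583 ± 47.9 RPKM at 30°C. These are levels relative to all RNA of a library, in which fewer cells that express a gene and less RNA per cell cannot be told apart. The sums, and the shares given below, are without the GC and length offsets. With the offsets the log2 difference between lsd1-ΔHMG and set1Δ cells at 30°C was 0.00 for ght5 and -0.76 for ght8. Without them it was 0.92 and 0.04. The order of strains by sum is uncertain to that extent.

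**Figure D1:**
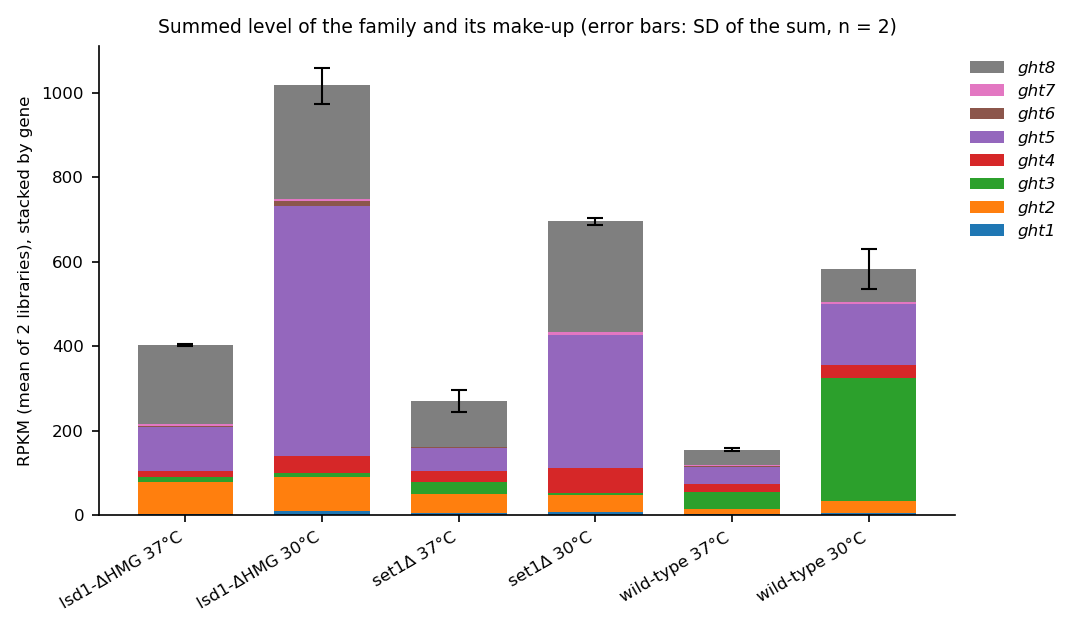
Level of each ght RNA, in RPKM, stacked to the family total in the 6 conditions (bars: means of 2 libraries; error bars: SD of the summed level). The total was 1017 RPKM in lsd1-ΔHMG cells at 30°C and 156 RPKM in wild-type cells at 37°C, its highest and lowest values, and ght3 made up 50% of it in wild-type cells at 30°C.

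The gene that led the family differed between conditions. In lsd1-ΔHMG cells ght8 led at 37°C with 186 ± 10.5 RPKM, or 46.2% of the family, and ght5 led at 30°C with 594 ± 32.1 RPKM, or 58.3%. In set1Δ cells the order at the top was alike, with ght8 at 110 ± 23.9 RPKM, or 40.3%, at 37°C and ght5 at 313 ± 5.15 RPKM, or 44.9%, at 30°C. In wild-type cells at 37°C ght5, ght3 and ght8 stood at 42.0 ± 0.39, 39.7 ± 3.33 and 37.2 ± 1.07 RPKM, and neighbours in that order overlapped between libraries. In wild-type cells at 30°C the gluconate transporter gene ght3 led with 292 ± 31.8 RPKM, ahead of ght5 with 144 ± 13.2 RPKM and ght8 with 77.7 ± 1.38 RPKM. ght1, ght6 and ght7 had at most 12.7 RPKM in any library. Of the neighbours in each order, only ght6 with ght3 and ght3 with ght1 in lsd1-ΔHMG cells at 30°C, ght3 with ght4 in set1Δ cells at 37°C, and the 3 leading genes of wild-type cells at 37°C overlapped between libraries.

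**Figure D2:**
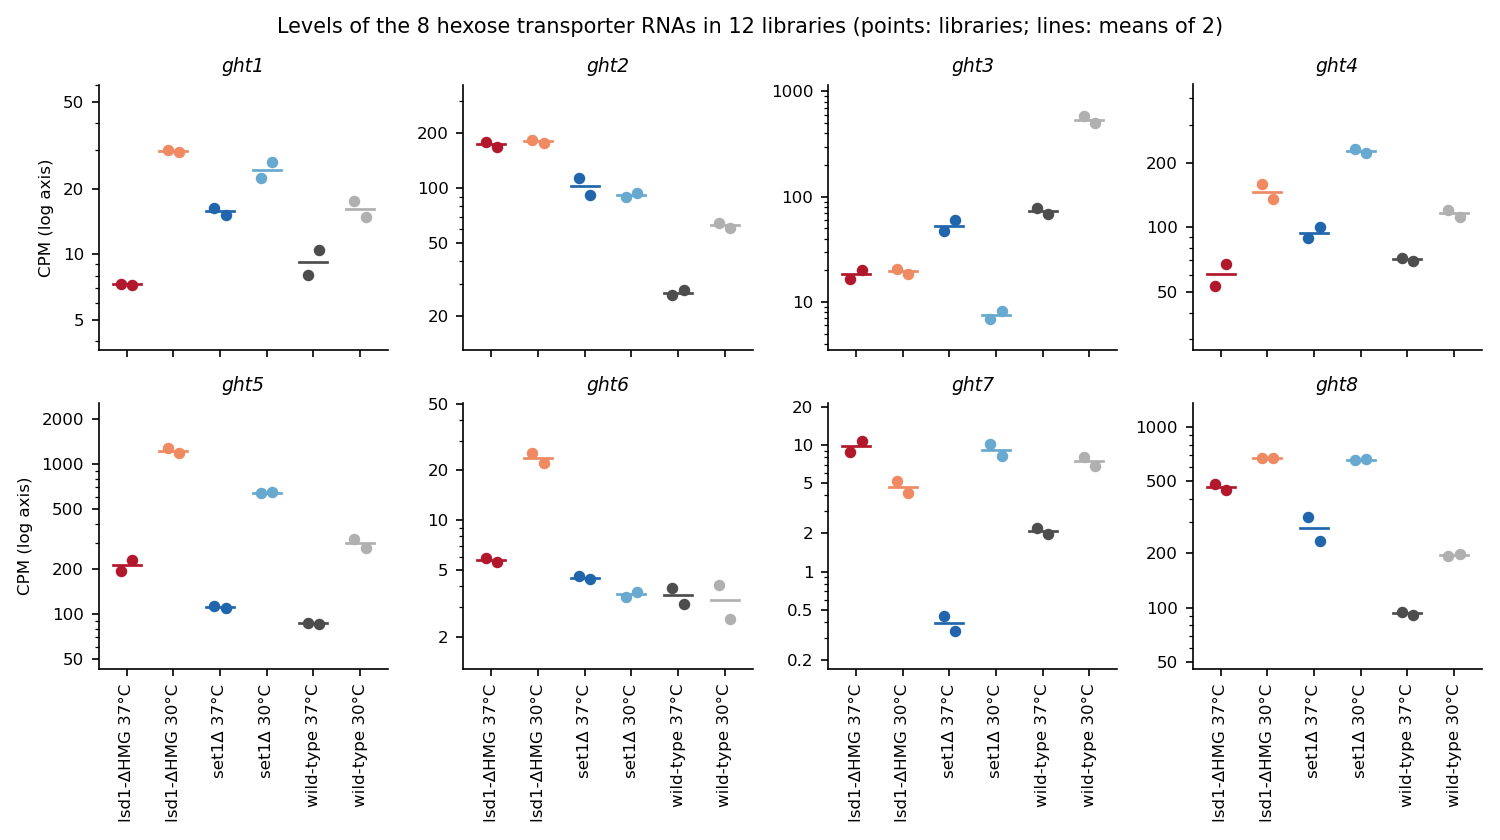
CPM of each ght RNA on a log axis in 12 libraries, by condition (points: libraries; lines: means of 2). The panel of ght3 spans a 70.6-fold range of condition means, that of ght7 a 21.4-fold and that of ght5 a 14.1-fold range, while ght4 spans 3.77-fold.

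Ght5, the high-affinity glucose transporter, had the highest RNA level of the family on average. Its RNA stood at 195 and 229 CPM in lsd1-ΔHMG cells and 114 and 109 CPM in set1Δ cells at 37°C, against 87.2 and 86.1 CPM in wild-type cells at 37°C. At 30°C it stood at 1272 and 1179 CPM in lsd1-ΔHMG cells and 638 and 653 CPM in set1Δ cells, against 316 and 277 CPM in wild-type cells. Both mutants lay above wild-type without overlap at each temperature as labelled. With the doubtful wild-type labels exchanged, both mutants at 37°C would lie below wild-type, at 316 and 277 CPM. In edgeR's quasi-likelihood fit, with adjustment over all 6904 features, the log2 fold change in lsd1-ΔHMG cells was 1.29 (SE 0.0941, adjusted p = 1.3e-08) at 37°C and 2.05 (SE 0.0952, adjusted p = 2.9e-10) at 30°C. In set1Δ cells it was 1.12 (SE 0.0929, adjusted p = 8.0e-08) at 30°C and 0.37, under the fold limit, at 37°C. These calls needed a log2 fold change of at least 1 and an adjusted p under 0.05, and none of the ght5 calls against wild-type was kept with the GC and length offsets: with them ght5 stood at -0.38 and 0.66 in lsd1-ΔHMG cells at 37°C and 30°C and at -0.89 and 0.65 in set1Δ cells.

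Ght8, the near copy of Ght5, was higher in both mutants at both temperatures. It had 486 and 448 CPM in lsd1-ΔHMG cells and 318 and 233 CPM in set1Δ cells at 37°C, against 95.2 and 91.4 CPM in wild-type cells. At 30°C it had 679 and 675 CPM in lsd1-ΔHMG cells and 655 and 666 CPM in set1Δ cells, against 193 and 198 CPM in wild-type cells. No mutant library overlapped a wild-type library of the same temperature. The log2 fold changes (edgeR) were 2.32 (SE 0.118, adjusted p = 4.6e-10) and 1.79 (SE 0.115, adjusted p = 5.6e-09) in lsd1-ΔHMG cells at 37°C and 30°C, and 1.56 (SE 0.115, adjusted p = 4.1e-08) and 1.76 (SE 0.115, adjusted p = 9.9e-09) in set1Δ cells. With the offsets they were 1.04 and 0.71 in lsd1-ΔHMG cells and 0.71 and 1.48 in set1Δ cells, so that 2 of the 4 calls were lost and the direction was kept.

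As labelled, the glucose transporter gene ght2 separated the mutants from wild-type more at 37°C than at 30°C. It had 179 and 169 CPM in lsd1-ΔHMG cells and 114 and 92.1 CPM in set1Δ cells at 37°C, against 26 and 27.8 CPM in wild-type cells. At 30°C it had 185 and 177 CPM in lsd1-ΔHMG cells and 90.2 and 94.3 CPM in set1Δ cells, against 64.6 and 60.9 CPM in wild-type cells. The mutants' libraries hardly moved with temperature, whereas the wild-type libraries labelled 37°C were lower than those labelled 30°C. An exchange of the wild-type labels, which hsp16 puts in doubt, would therefore make the separation larger at 30°C. The log2 fold change (edgeR) was 2.70 (SE 0.0987, adjusted p = 3.6e-11) in lsd1-ΔHMG and 1.94 (SE 0.0973, adjusted p = 7.7e-10) in set1Δ cells at 37°C, and 1.53 (SE 0.094, adjusted p = 3.0e-09) in lsd1-ΔHMG and 0.56, under the fold limit, in set1Δ cells at 30°C. These 3 calls held with the offsets, at 2.08, 1.63 and 1.04.

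The gluconate transporter gene ght3 went the other way and had the widest range of the family. It had 16.7 and 20.2 CPM in lsd1-ΔHMG cells and 46.8 and 59.8 CPM in set1Δ cells at 37°C, against 77.8 and 69.1 CPM in wild-type cells. At 30°C it had 20.8 and 18.6 CPM in lsd1-ΔHMG cells and 6.95 and 8.24 CPM in set1Δ cells, against 582 and 499 CPM in wild-type cells. Every mutant library lay below the wild-type libraries of its temperature. With the doubtful wild-type labels exchanged this would still hold. The mutants at 30°C would then be set against 77.8 and 69.1 CPM, so the fold sizes rest on the labels. ght3 was 27.4-fold lower in lsd1-ΔHMG cells at 30°C (log2 fold change -4.77, SE 0.146, adjusted p = 3.5e-11, edgeR) and 71.2-fold lower in set1Δ cells at 30°C (-6.15, SE 0.164, adjusted p = 6.3e-12). At 37°C it was 3.98-fold lower in lsd1-ΔHMG cells (-1.99, SE 0.135, adjusted p = 1.0e-08), and in set1Δ cells the log2 difference of -0.46 was under the fold limit. The offsets left the 3 calls in place, at -4.92, -6.02 and -2.22.

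The wild-type libraries at 30°C, in which ght3 was highest, are the ones with the high hsp16 level. They also held the most RNA of fbp1, the fructose bisphosphatase of gluconeogenesis, and of inv1, the secreted invertase. fbp1 had 227 and 220 CPM in wild-type cells at 37°C, against 7009 and 6117 CPM at 30°C, and inv1 had 13.4 CPM in both wild-type libraries at 37°C, against 212 and 186 CPM at 30°C. Both enzymes are known to be repressed by glucose. In the mutants at 30°C fbp1 stood at 816 and 659 CPM in lsd1-ΔHMG cells and 69.1 and 66.4 CPM in set1Δ cells. In the same libraries the log2 fold change against wild-type was -3.15 and -6.60 for fbp1 and -1.79 and -3.77 for inv1 in lsd1-ΔHMG and set1Δ cells, and all 4 passed the test. The part of these differences between cultures in the change of ght3 was not tested.

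**Figure D3:**
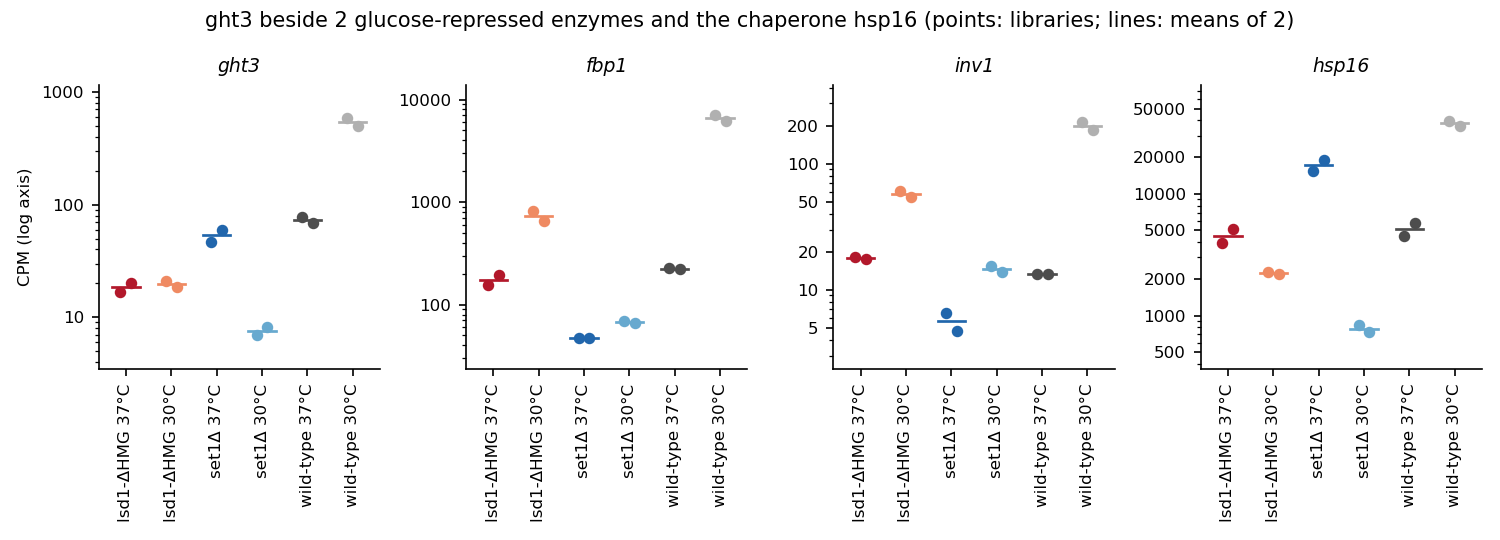
CPM of ght3, of the glucose-repressed genes fbp1 and inv1 and of the chaperone gene hsp16 on log axes in 12 libraries (points: libraries; lines: means of 2). All 4 genes are highest in the wild-type libraries labelled 30°C, with 582 and 499 CPM for ght3 and 39422 and 36205 CPM for hsp16.

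The fructose transporter gene ght6 was high in 1 condition. It had 25.3 and 22.0 CPM in lsd1-ΔHMG cells at 30°C, against 4.10 and 2.55 CPM in wild-type cells at 30°C, and 2.55 to 5.92 CPM in the 10 libraries outside lsd1-ΔHMG at 30°C. The log2 fold change was 2.83 (SE 0.195, adjusted p = 8.2e-09, edgeR) and 1.41 with the offsets. At 37°C it was 0.70 in lsd1-ΔHMG cells, under the fold limit, and -1.03 with the offsets. A noncoding RNA on the opposite strand, SPNCRNA.1118, covers the whole of ght6. It had 43.0 and 42.2 CPM in lsd1-ΔHMG cells and 23.4 and 22.7 CPM in set1Δ cells at 30°C, against 67.6 and 59.8 CPM in wild-type cells, which is more than ght6 in every library. The library kit marked strand, but whether this table was counted by strand is not given in the sources used here. The ght6 reads are therefore uncertain. The same doubt holds over part of ght1, ght2, ght3, ght4, ght7 and ght8, each overlapped by noncoding RNA on the opposite strand. In ght7 this overlap covers 1379 of 1630 bases.

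The members ght7, ght1 and ght4 are less well known. ght7 had 8.77 and 10.7 CPM in lsd1-ΔHMG cells and 0.45 and 0.34 CPM in set1Δ cells at 37°C, against 2.21 and 1.97 CPM in wild-type cells. The set1Δ value rests on 26 counts over both libraries. At 37°C ght7 thus stood above wild-type in lsd1-ΔHMG cells (log2 fold change 2.21, SE 0.194, adjusted p = 9.1e-08, edgeR) and below it in set1Δ cells (-2.41, SE 0.289, adjusted p = 4.5e-06). Both sizes rest on the doubtful wild-type labels, since on an exchange ght7 at 37°C would be set against 8.04 and 6.87 CPM. At 30°C it had 5.16 and 4.17 CPM in lsd1-ΔHMG cells and 10.2 and 8.15 CPM in set1Δ cells, against 8.04 and 6.87 CPM in wild-type cells, and the log2 differences of -0.67 and 0.30 were under the fold limit, although the first was -1.25 and past it with the offsets.

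ght1 and ght4 were not called against wild-type in any of the 4 comparisons. ght1 had 7.36 and 7.28 CPM in lsd1-ΔHMG cells and 16.4 and 15.1 CPM in set1Δ cells at 37°C, against 8.06 and 10.5 CPM in wild-type cells, and 30.0 and 29.5 CPM in lsd1-ΔHMG cells and 22.5 and 26.4 CPM in set1Δ cells at 30°C, against 17.5 and 14.8 CPM in wild-type cells. ght4 had 53.3 and 67.4 CPM in lsd1-ΔHMG cells and 88.6 and 99.7 CPM in set1Δ cells at 37°C, against 71.7 and 69.7 CPM in wild-type cells, and 158 and 135 CPM in lsd1-ΔHMG cells and 231 and 221 CPM in set1Δ cells at 30°C, against 120 and 112 CPM in wild-type cells. Their log2 differences from wild-type lay between -0.34 and 0.96. The largest of them, ght4 in set1Δ cells at 30°C, passed the fold limit without set1Δ replicate 1 (1.10), without set1Δ replicate 2 (1.17) or without wild-type replicate 1 (1.01), and ght1 in lsd1-ΔHMG cells at 30°C (0.88) passed it without wild-type replicate 1 (1.01). With the offsets ght1 was called lower in lsd1-ΔHMG cells at 37°C, at -1.95.

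Counted over the family, lsd1-ΔHMG cells differed from wild-type in 5 of 8 members at 37°C, where 40.8% of all features were called: ght2, ght5, ght7 and ght8 were higher (4 members, against 25.4% of features) and ght3 was lower (1 member, against 15.4%). The members' median log2 fold change was 0.99, against -0.06 over all features. At 30°C 5 of 8 members were called in lsd1-ΔHMG cells, against 42.5% of features: ght2, ght5, ght6 and ght8 were higher (4 members, against 24.4%) and ght3 was lower (1 member, against 18.1%), with a median of 1.20 against -0.11. With the offsets the members' medians were -0.67 at 37°C and 0.20 at 30°C, and 3 members were called higher and 3 lower at 37°C, and 2 higher and 2 lower at 30°C.

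In set1Δ cells 3 of 8 members were called against wild-type at each temperature. At 37°C, where 24.2% of features were called, ght2 and ght8 were higher (2 members, against 18.7%) and ght7 was lower (1 member, against 5.53%), with a median of 0.39 against 0.01 over all features. At 30°C, where 32.6% of features were called, ght5 and ght8 were higher (2 members, against 21.1%) and ght3 was lower (1 member, against 11.6%), with a median of 0.58 against 0.22. With the offsets 1 member was called higher and 1 lower at each temperature, and the median at 37°C was -0.42. With 8 genes and backgrounds of this size, the counts in the mutants are not read as particular to the family.

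**Figure D4:**
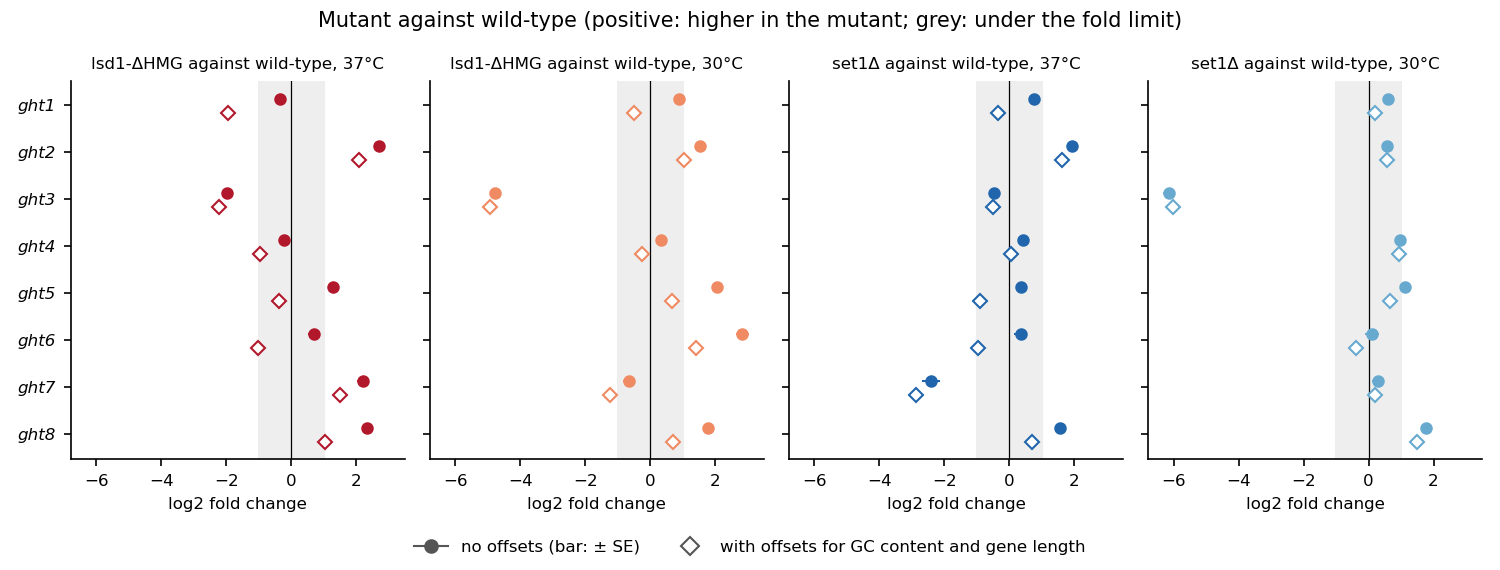
Log2 fold change of each ght RNA in the mutants against wild-type cells (filled: edgeR fit with SE; open: with offsets for GC content and gene length; grey: log2 fold change under 1). The open marks lie left of most filled marks, as for ght5 in lsd1-ΔHMG cells at 37°C (-0.38 against 1.29), while ght3 in set1Δ cells at 30°C stays at -6.02 against -6.15.

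A direct comparison of the mutants uses no wild-type level, although the wild-type libraries enter the scaling, the offsets and the estimate of the spread. At 37°C 3 of 8 members differed between lsd1-ΔHMG and set1Δ cells, where 23.4% of features did: ght7 was 24.6-fold higher in lsd1-ΔHMG cells (log2 fold change 4.62, SE 0.252, adjusted p = 3.6e-09, edgeR), and ght3 and ght1 were lower, by log2 fold changes of -1.53 and -1.11. With the offsets 4 members were called, 1 higher and 3 lower, since ght4 passed the limit as well (-1.01, against -0.64 without them). ght5, at 0.92, was called only without lsd1-ΔHMG replicate 1 (1.03). At 30°C 2 of 8 members differed, against 44.9% of features: ght6 was 6.58-fold higher (2.72, SE 0.197, adjusted p = 1.3e-08) and ght3 2.60-fold higher (1.38, SE 0.161, adjusted p = 2.7e-06) in lsd1-ΔHMG cells. With the offsets 2 members were called higher and 2 lower at 30°C: ght6 and ght3 stayed higher, at 1.79 and 1.10, and ght7 and ght4 were lower, at -1.44 and -1.21 (-0.97 and -0.63 without them). ght8 differed by 0.04 at 30°C (SE 0.111, adjusted p = 0.77), and this difference changed sign with the scaling and was -0.76 with the offsets. At 30°C ght7, ght2 and ght5, at -0.97, 0.97 and 0.92, lay just under the limit: ght7 passed it without lsd1-ΔHMG replicate 1 (-1.14) or set1Δ replicate 2 (-1.15), ght2 reached it without lsd1-ΔHMG replicate 2, and ght2 and ght5 with DESeq2 scaling (1.05 and 1.01).

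Between temperatures the family was mostly lower at 37°C. In lsd1-ΔHMG cells 5 of 8 members were called, against 14.9% of features: ght1, ght4, ght5 and ght6 were lower at 37°C (4 members, against 10.5%) and ght7 was higher (1 member, against 4.48%). In set1Δ cells 5 of 8 were called, against 32.3% of features: ght4, ght5, ght7 and ght8 were lower (4 members, against 20.9%) and ght3 was higher (1 member, against 11.4%). In wild-type cells, on temperature labels that hsp16 puts in doubt, 5 of 8 were called, against 21.5% of features: ght2, ght3, ght5, ght7 and ght8 were lower in the libraries labelled 37°C (5 members, against 15.9%) and 0 members were higher (against 5.55%). At an unadjusted p under 0.05 edgeR gave 0 higher members as well, and so did DESeq2 and limma-voom at the full threshold. The members' medians were -0.91, -0.95 and -1.14 in lsd1-ΔHMG, set1Δ and wild-type cells, against 0.05, 0.03 and -0.04 over all features, and -0.90, -1.23 and -0.97 with the offsets.

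ght5 was the one member called lower at 37°C in all 3 strains as labelled, and an exchange of the wild-type labels would leave it lower in the mutants alone. Its log2 fold change of 37°C over 30°C (edgeR) was -2.53 (SE 0.0969, adjusted p = 6.1e-10) in lsd1-ΔHMG cells, -2.53 (SE 0.0974, adjusted p = 3.4e-11) in set1Δ cells and -1.77 (SE 0.0953, adjusted p = 2.6e-09) in wild-type cells, and the offsets left these 3 calls in place at -2.28, -2.79 and -1.24. ght4 was 2.43-fold lower in lsd1-ΔHMG and 2.40-fold lower in set1Δ cells, and its difference of -0.71 in wild-type cells was under the limit. ght8 was lower by a log2 fold change of -1.26 in set1Δ cells and -1.06 in wild-type cells, and its difference in lsd1-ΔHMG cells was -0.54. The call of ght8 in wild-type cells was lost without replicate 1 at 37°C (-0.99) and with the offsets (-0.77).

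ght3 and ght7 changed with temperature in different directions in different strains, as labelled. ght3 was higher at 37°C in set1Δ cells, by a log2 fold change of 2.81 (SE 0.156, adjusted p = 1.9e-09, edgeR), lower in wild-type cells, by -2.88 (SE 0.131, adjusted p = 1.1e-09), and at -0.10 in lsd1-ΔHMG cells. ght7 was 23.2-fold lower at 37°C in set1Δ cells (-4.53, SE 0.257, adjusted p = 1.2e-09) and 3.55-fold lower in wild-type cells (-1.83, SE 0.199, adjusted p = 2.0e-06), but higher in lsd1-ΔHMG cells (1.06, SE 0.179, adjusted p = 1.4e-04), a call that was lost without replicate 2 of lsd1-ΔHMG at either temperature (0.91 each) and with other scalings (0.96 to 0.99). When the mutants' change with temperature was tested against that of wild-type cells, 5 of 8 members differed in lsd1-ΔHMG cells (ght1, ght2, ght3, ght6 and ght7), against 18.5% of features, and 3 of 8 in set1Δ cells (ght2, ght3 and ght7), against 36.8% of features. With the offsets ght5 was called as well, at -1.04 in lsd1-ΔHMG and -1.55 in set1Δ cells (-0.76 in each without them), which made 6 and 4 members. These differences rest on the wild-type temperature labels. The call of ght2 in lsd1-ΔHMG cells (1.17) was lost without wild-type replicate 1 at 37°C (0.98). ght1 in wild-type cells (-0.80) reached the fold limit without replicate 2 at 37°C.

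**Figure D5:**
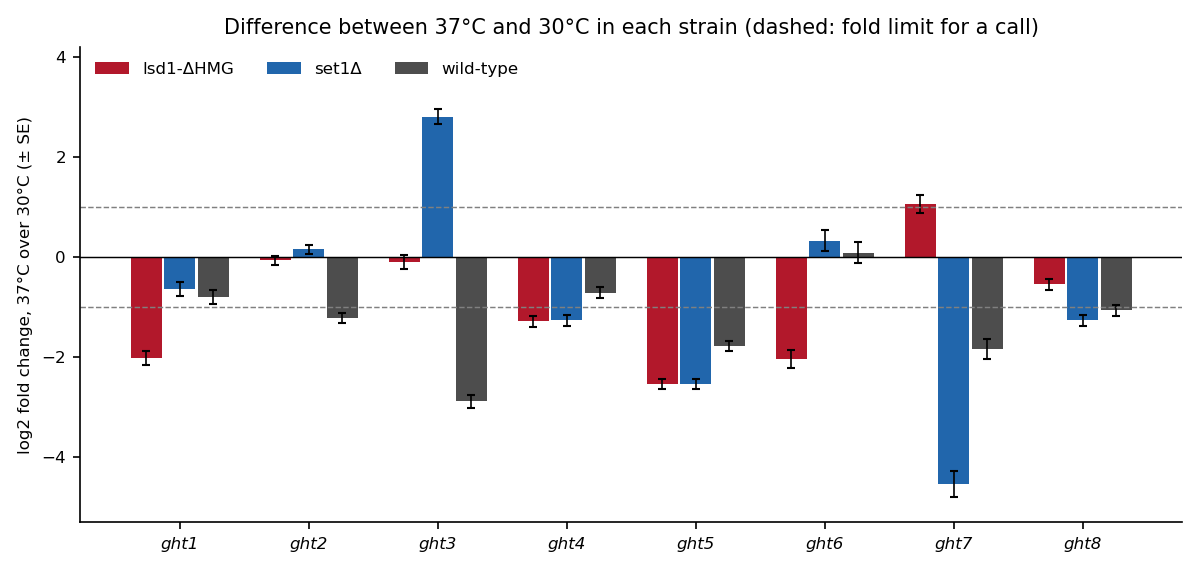
Log2 fold change of each ght RNA at 37°C over 30°C in lsd1-ΔHMG, set1Δ and wild-type cells (bars: edgeR estimates; error bars: SE; dashed lines: the limit for a call, 1 and -1). ght5 is lower at 37°C in all 3 strains as labelled, whereas ght3 stands at 2.81 in set1Δ cells and -2.88 in wild-type cells and ght7 at 1.06 in lsd1-ΔHMG cells and -4.53 in set1Δ cells.

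Neighbouring genes were looked at because members lie in different surroundings. ght1 and ght8 are adjacent on chromosome III, and the maltase gene mal1 precedes ght4. Of the 14 other protein-coding neighbours tested, 2 were higher and 4 lower in lsd1-ΔHMG cells at 37°C, 3 higher and 2 lower at 30°C, 0 higher and 2 lower in set1Δ cells at 37°C (3 higher at an unadjusted p under 0.05, and 1 with limma-voom), and 3 higher and 2 lower at 30°C. Over all features 25.4% were higher and 15.4% lower in lsd1-ΔHMG cells at 37°C and 24.4% and 18.1% at 30°C, and in set1Δ cells 18.7% and 5.53% at 37°C and 21.1% and 11.6% at 30°C, so that nothing is read from the neighbours' counts. The heme uptake gene shu1, next to ght3, had 9.75 and 9.63 CPM in lsd1-ΔHMG cells at 37°C, against 1.34 and 1.69 CPM in wild-type cells at 37°C, so it was higher (log2 fold change 2.69, adjusted p = 8.7e-09, edgeR) where ght3 was lower, and so it was in lsd1-ΔHMG cells at 30°C (1.32). In set1Δ cells at 30°C shu1 was lower than in wild-type cells (-1.50), as ght3 was. At 37°C over 30°C shu1 was lower in wild-type cells as labelled (-2.86), as ght3 was, and lower in set1Δ cells (-1.80), where ght3 was higher. SPBPB8B6.02c, next to ght7, was lower at 37°C than at 30°C in set1Δ cells (-2.59, adjusted p = 1.9e-07, edgeR), as ght7 was. In lsd1-ΔHMG cells it stood at -0.39, where ght7 was higher. SPBC1348.12, on the other side of ght7, was lower at 37°C in lsd1-ΔHMG (-1.32), set1Δ (-1.35) and, as labelled, wild-type cells (-1.84). Against wild-type at 37°C and 30°C it was lower in lsd1-ΔHMG cells (-1.93 and -2.45) and set1Δ cells (-1.28 and -1.77). SPCC1235.18, next to ght5, was lower at 37°C in lsd1-ΔHMG cells (-2.37) and set1Δ cells (-1.95), as ght5 was. At -0.99 in wild-type cells it was under the limit. The gene on the other side of ght5, dga1, was under the limit in each strain. It stood at -0.33, 0.31 and 0.15 in lsd1-ΔHMG, set1Δ and wild-type cells. Only 5 of the features that overlap a member in the annotation are in the count table. In lsd1-ΔHMG cells 0 of them were called against wild-type at 37°C. At 30°C SPNCRNA.298, on the strand of ght4, was higher (1.84, adjusted p = 7.9e-07, edgeR). In set1Δ cells at 37°C SPNCRNA.1121, opposite ght1, was higher (1.86, adjusted p = 1.6e-07, edgeR), as was SPNCRNA.298 (1.18). SPNCRNA.1118, opposite ght6, was lower in set1Δ cells at 37°C (-1.11) and 30°C (-1.47). Against the shares above, nothing is read from these counts either.

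Promoters were searched for short motifs on both strands in a window of 250 bases before to 50 bases after each annotated start, 5123 windows of 300 bases in all. The letters CCCCNC, a core bound by zinc-finger repressors of the Scr1 kind, stood in the windows of ght1, ght4 and ght8 (3 of 8), against 7.0% of all windows, with 3 matches in ght8. The letters CCCCTC are one case of that motif, but were searched as the site of Rst2, a protein of cyclic AMP signalling. They stood in 0 of 8, against 2.1%. CCAAT, the box bound by the CCAAT-binding factor, stood in ght2, ght7 and ght8 (3 of 8), against 42.3%, and GAANNTTC, a part of the heat-shock element, in ght6 alone (1 of 8), against 11.1%. A match is a description of the letters and not of binding.

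Over the 12 libraries, which fall into 6 conditions and so are not 12 independent points, the 3 protein-coding features most like ght5 in log2 CPM were sfk1 (r = 0.949), cbf12 (r = 0.939) and meu15 (r = 0.938), out of 5104. For ght3 they were rev7 (r = 0.973), coa1 (r = 0.973) and pcm2 (r = 0.969).

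Genes that act with the transporters were counted from a list of 28, all tested: sugar phosphorylation, cyclic AMP signalling, the AMP-activated kinase and Scr1 branch, TORC2, transporter trafficking and glucose-repressed enzymes. In lsd1-ΔHMG cells 17 of 28 were higher and 0 lower at 37°C (against 25.4% and 15.4% of all features), and 16 higher and 4 lower at 30°C (against 24.4% and 18.1%). In set1Δ cells 9 were higher and 2 lower at 37°C (against 18.7% and 5.53%), and 6 higher and 4 lower at 30°C (against 21.1% and 11.6%), the count of 6 being near that share. With the GC and length offsets these counts were 11 and 0, 10 and 4, 8 and 3, and 4 and 4, in the same order. Between temperatures 0 were higher and 5 lower at 37°C in lsd1-ΔHMG cells, 0 and 3 in set1Δ cells, and 0 and 12 in wild-type cells as labelled (against 4.48% and 10.5%, 11.4% and 20.9%, and 5.55% and 15.9% of all features), and with the offsets 0 and 4, 0 and 3, and 0 and 10. DESeq2 and limma-voom gave 0 in each place where edgeR gave 0. At an unadjusted p under 0.05 edgeR gave 4 lower in lsd1-ΔHMG cells at 37°C against wild-type, and 6, 10 and 5 higher at 37°C over 30°C in lsd1-ΔHMG, set1Δ and wild-type cells. All 3 sugar phosphorylation genes and both glucose-repressed enzymes were lower at 37°C in wild-type cells as labelled, although with the offsets hxk1 stood at -0.89 (-1.29 without them) and lost its call.

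Sugar phosphorylation, the step after uptake, held the largest increase of the list at 37°C in both mutants, on wild-type labels that are in doubt. hxk2, a hexokinase gene, had 397 and 303 CPM in lsd1-ΔHMG cells and 344 and 255 CPM in set1Δ cells at 37°C, against 11.8 and 13.6 CPM in wild-type cells, log2 fold changes of 4.79 and 4.56 (3.13 and 3.26 with the offsets). hxk1, the other hexokinase gene, was higher by 3.10 and 2.44 (1.56 and 1.36 with the offsets). At 30°C hxk2 was higher by 3.36 in lsd1-ΔHMG and 1.49 in set1Δ cells. There hxk1 was higher by 2.29 and 1.37, but by 0.98 in each with the offsets, under the fold limit. The third gene of this step was not called in either mutant at 37°C and was lower in both at 30°C. Of the genes that control transporters, sds23, a regulator of phosphatases known to be needed for growth at low glucose, was higher by 3.98 and 3.26 at 37°C, pub1, a ubiquitin ligase gene, by 3.16 and 2.93, and aly3, the arrestin gene known for Ght5 turnover, by 2.79 and 1.71. The repressor gene scr1 was higher by 2.13 in lsd1-ΔHMG and 2.57 in set1Δ cells at 37°C, although with the offsets lsd1-ΔHMG cells stood at 0.40. ght2 and ght8 were also higher in both mutants at 37°C, though ght8 in set1Δ cells stood at 0.71 with the offsets. Of all features, 25.4% were higher in lsd1-ΔHMG and 18.7% in set1Δ cells there. The genes above were named for their large changes in these data. fbp1 and inv1, named by the same rule, were lower in set1Δ cells at 37°C (-2.24 and -1.26) and were not called in lsd1-ΔHMG cells. A link between the named genes and the transporters was not tested.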

How the data were processed

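RNA was isolated from whole cells and sequenced with 150-base paired reads by a protocol that marks strand. The authors trimmed reads with Trimmomatic 0.39, aligned them to ASM294v2 with STAR and assigned them to genes with featureCounts by fraction, and they deposited the resulting expected counts without normalization. Of 34 value columns 12 were used, and 22 that match no sample were not used here. The deposited values were rounded to whole numbers and tested in edgeR 4.0.16 (R 4.3.3): TMM scaling, filterByExpr by condition, a robust quasi-likelihood fit of all 12 libraries (1 mean per condition) and Benjamini-Hochberg adjustment over 6904 features, and features past an adjusted p of 0.05 with an absolute log2 fold change of 1 or more were called. CPM used the TMM-scaled library size, and RPKM divided it by gene length. SE is the log2 fold change divided by the square root of its F statistic. There were 11 comparisons. The edgeR fit was tested on simulated data for 1 comparison, lsd1-ΔHMG against wild-type at 37°C. There 200 of 6856 genes were changed, and 100.0% of them were recovered. The simulation held no trend with GC content and fewer changes than the data, so it cannot judge the calls under those conditions. The alternatives were RLE scaling, TMM from protein-coding features, DESeq2 1.42.0, limma-voom 3.58.1, other filters and limits, fewer libraries, a replicate block, splines (4 degrees of freedom) for GC content and gene length as offsets, and leaving out each library.

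Identifiers were matched to RefSeq ASM294v3 (6846, or 94.2%) for names, lengths and GC content with biopython 1.88, and because the builds differ no coordinates or sequences are printed. Named were the 8 members, set1, lsd1 and hsp16 as checks of the labels, at most 8 genes of the pathway list with the largest changes among those called, neighbours and overlapping features, and the 3 features most like ght5 and ght3. The members and lists were chosen with earlier results of these data known. Replicates of a condition correlated at r of 0.993 to 0.997 in log2 CPM and differed by more than sampling noise.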

Additional observations from a re-analysis of the deposited data

Results flagged for a closer look

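The interaction test in edgeR, each mutant's log2 change at 37°C over 30°C minus that of wild-type cells, passed the threshold for 8 values. In lsd1-ΔHMG cells the difference was 2.88 for ght7 (SE 0.268, adjusted p = 1.5e-06), 2.78 for ght3 (SE 0.188, adjusted p = 1.5e-07), 1.17 for ght2 (SE 0.132, adjusted p = 9.0e-06), -1.22 for ght1 (SE 0.202, adjusted p = 2.0e-04) and -2.13 for ght6 (SE 0.274, adjusted p = 2.4e-05). In set1Δ cells it was 5.69 for ght3 (SE 0.203, adjusted p = 1.2e-10), 1.38 for ght2 (SE 0.134, adjusted p = 6.0e-07) and -2.71 for ght7 (SE 0.344, adjusted p = 8.3e-06).

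ght3 and ght2 thus differed with the same sign in both mutants and ght7 with opposite signs. Both interactions share the wild-type libraries, so the values of the mutants are not independent of each other. In the wild-type libraries labelled 30°C hsp16 was at 39422 and 36205 CPM, which puts the temperature labels of wild-type cells, and with them every interaction, in doubt. All 8 calls were kept with the GC and length offsets, at 2.75, 2.69, 1.04, -1.46 and -2.44 in lsd1-ΔHMG cells and 5.52, 1.07 and -3.05 in set1Δ cells, and the offsets added ght5 in both mutants, at -1.04 in lsd1-ΔHMG and -1.55 in set1Δ cells (-0.76 in each without them).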

How the results depend on the processing

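Each comparison was paired with each alternative setting. The counts of members called kept within 1.5 times of the reported count in all 52 pairs that left out 1 library. Among the other pairs they did so in 108 of 121. The exceptions were a log2 fold limit of 2, which left 3 and 3 members in lsd1-ΔHMG cells against wild-type at 37°C and 30°C, 1 and 1 in set1Δ cells, 3, 3 and 1 between temperatures in lsd1-ΔHMG, set1Δ and wild-type cells, 1 and 1 between the mutants at 37°C and 30°C, and 3 in the lsd1-ΔHMG interaction, and 4 members between the mutants at 30°C with RLE scaling, DESeq2 or the GC and length offsets (2 reported, both higher; with the offsets 2 higher and 2 lower). Without 1 library the counts were 5 to 5 and 5 to 6 in lsd1-ΔHMG cells against wild-type at 37°C and 30°C, 3 to 3 and 3 to 4 in set1Δ cells, 4 to 5, 5 to 5 and 4 to 6 between temperatures in lsd1-ΔHMG, set1Δ and wild-type cells, 3 to 4 and 2 to 3 between the mutants at 37°C and 30°C, and 4 to 5 and 3 to 3 in the interactions.

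Single members changed sign in 26 combinations of a member, a comparison and a setting. With the offsets these were, against wild-type, ght5 (-0.38) and ght6 (-1.03) in lsd1-ΔHMG cells at 37°C, ght1 (-0.49) and ght4 (-0.26) at 30°C, ght1 (-0.34), ght5 (-0.89) and ght6 (-0.97) in set1Δ cells at 37°C and ght6 (-0.38) at 30°C. They were also ght2 in set1Δ cells at 37°C over 30°C (-0.10), ght6 between the mutants at 37°C (-0.06), ght1 (-0.68) and ght8 (-0.76) at 30°C, and ght1 (-0.52) and ght6 (-0.59) in the set1Δ interaction. With only the libraries compared, ght6 in set1Δ cells at 30°C was -0.11 and ght8 between the mutants at 30°C -0.02, which was -0.10 with TMM from protein-coding features. Without 1 library, ght6 in set1Δ cells at 30°C ranged over -0.19 to 0.49, ght3 in lsd1-ΔHMG cells between temperatures over -0.24 to 0.03, ght2 in set1Δ cells over -0.02 to 0.30 and ght6 in wild-type cells over -0.21 to 0.47. In the set1Δ interaction ght1 ranged over -0.11 to 0.37 (also -0.07 and -0.01), ght6 over -0.14 to 0.54 and ght8 over -0.55 to 0.01. Of these only ght5 in lsd1-ΔHMG cells at 37°C had been called. ght5 in set1Δ cells at 30°C lost its call with only the libraries compared (0.90). The cause was not tested.

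TMM from protein-coding features moved the median of all features by -0.26, -0.18, -0.20 and -0.14 in lsd1-ΔHMG cells against wild-type and against set1Δ cells at 37°C and 30°C, only the libraries compared by -0.22 in set1Δ cells at 30°C, and RLE scaling and DESeq2 by -0.11 in the lsd1-ΔHMG interaction. The deviations of equally numbered replicates correlated at r of -0.177 to 0.352 over 15 pairs of conditions, and since some lay below 0 the numbers were not taken to pair the libraries, though a batch shared by some pairs was not tested. A replicate block changed no call of a member, with for example 5 members called in lsd1-ΔHMG cells against wild-type at 37°C. With 2 libraries per condition the spread rests on all 12, and ght7 in set1Δ cells at 37°C on 26 counts.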
